A study of Mus musculus with 6 samples.

Results

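The splicing factor and hnRNP genes are the 74 genes, of 18193 that the arrays read with a probe set of their own, whose symbol starts with Srsf, Hnrnp, Sf3a, Sf3b, Snrp, U2af, Prpf or Lsm. Of these, 73 passed a filter on low signal and were tested among 14680 genes. RNA came from 3 samples of MLL-AF9/Mn1null cells and 3 samples of MLL-AF9/Mn1wt cells. All were sorted bone marrow cells of the mouse that carried the leukaemia fusion oncogene MLL-AF9 and a control vector with EGFP, a green fluorescent marker. In Mn1null cells Mn1, which encodes a transcriptional cofactor, had been deleted with CRISPR-Cas9, and in Mn1wt cells it was intact. The medium held serum with interleukin 3, interleukin 6 and stem cell factor. Neither the age and strain of the mice nor the number of clones is stated in the labels. Since the labels do not say that replicates were separate cultures, p-values here reflect the variation among these 6 samples alone, and that variation may be technical.

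Introns are cut out of pre-mRNA by the spliceosome, a machine assembled on each intron from small nuclear ribonucleoproteins (snRNPs) and many other proteins. The U1 snRNP pairs with the start of the intron, U2AF and the U2 snRNP mark its end and its branch point, and a particle of U4, U6 and U5 then joins to form the catalytic core. Sm proteins form a ring on most spliceosomal snRNAs and LSm proteins form one on U6, while SR proteins and hnRNP proteins bind the transcript itself and help to decide which splice sites are used. SRSF2, U2AF1 and SF3B1 are recurrently mutated in human myeloid neoplasms.

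Values are log2 signals of 1 probe set per gene, the brightest of that gene, and a difference is the mean of Mn1null minus the mean of Mn1wt. Signals of different probe sets do not compare amounts of different RNAs. The probe set of Mn1 gave 4.21, 4.12 and 4.07 in Mn1null cells, against 4.49, 4.44 and 4.12 in Mn1wt cells, close to the filter level of 4.07, and its place relative to the deletion is not given, so it does not check the labels. The myeloid progenitor genes Mpo, Elane, Prtn3 and Ctsg had log2 signals between 12.72 and 14.41 in group means. Array medians lay between 5.17 and 5.23, and arrays correlated at 0.997 to 0.998 within a group and 0.968 to 0.969 between groups. Of the 64 control probe sets, the 8 that read the 5′ ends of labelling controls averaged 6.47 ± 0.059 in Mn1null and 7.32 ± 0.10 in Mn1wt (log2, SD, n = 3 each), while the 3′ ones differed by -0.30. The 7 measured mitosis genes of a fixed list all fell, and their mean lay between 10.66 and 10.68 on the Mn1null arrays and between 11.29 and 11.33 on the Mn1wt arrays. Of 10 markers of myeloid progenitors 6 fell and 2 rose, with list means of 11.08 to 11.10 in Mn1null and 11.32 to 11.35 in Mn1wt. Of 9 mast cell and basophil markers 6 rose and 0 fell, with list means of 8.57 to 8.59 in Mn1null and 6.95 to 7.01 in Mn1wt. Of 5 measured erythroid markers 2 rose (Klf1 and Epor), with list means of 5.51 to 5.65 in Mn1null and 5.17 to 5.25 in Mn1wt. Of 7 markers of stroma and endothelium Pecam1 rose, with list means of 5.35 to 5.42 in Mn1null and 5.190 to 5.204 in Mn1wt. Of 4 B cell markers Cd79b fell, with list means of 4.90 to 5.09 in Mn1null and 5.07 to 5.24 in Mn1wt. Of 4 T cell markers 0 passed, with list means of 4.95 to 5.06 in Mn1null and 4.87 to 5.01 in Mn1wt. In such bulk RNA, fewer cells of a type and less RNA per cell cannot be told apart. Every group of genes below was compared between these same arrays, and the part of labelling, mitosis and cell type in the differences was not tested.

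Splicing factor and hnRNP genes were lower in Mn1null cells almost throughout, each by a small amount. Of the 73 tested, 57 fell, 3 rose and 13 did not pass the limma test (threshold 0.05 on the adjusted p), whereas of all 14680 genes 25.6% fell and 23.2% rose. The median difference was -0.27, against -0.0053 over all genes tested. The 3 Mn1null values lay below the 3 Mn1wt values for 62 of the 73 genes and above them for 4, against 30.1% and 27.6% of all genes (57.7% for both directions), and 7 overlapped. The mean over the 73 genes was 11.00, 10.98 and 11.00 on the Mn1null arrays, against 11.26, 11.27 and 11.27 on the Mn1wt arrays.

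**Figure D1:**
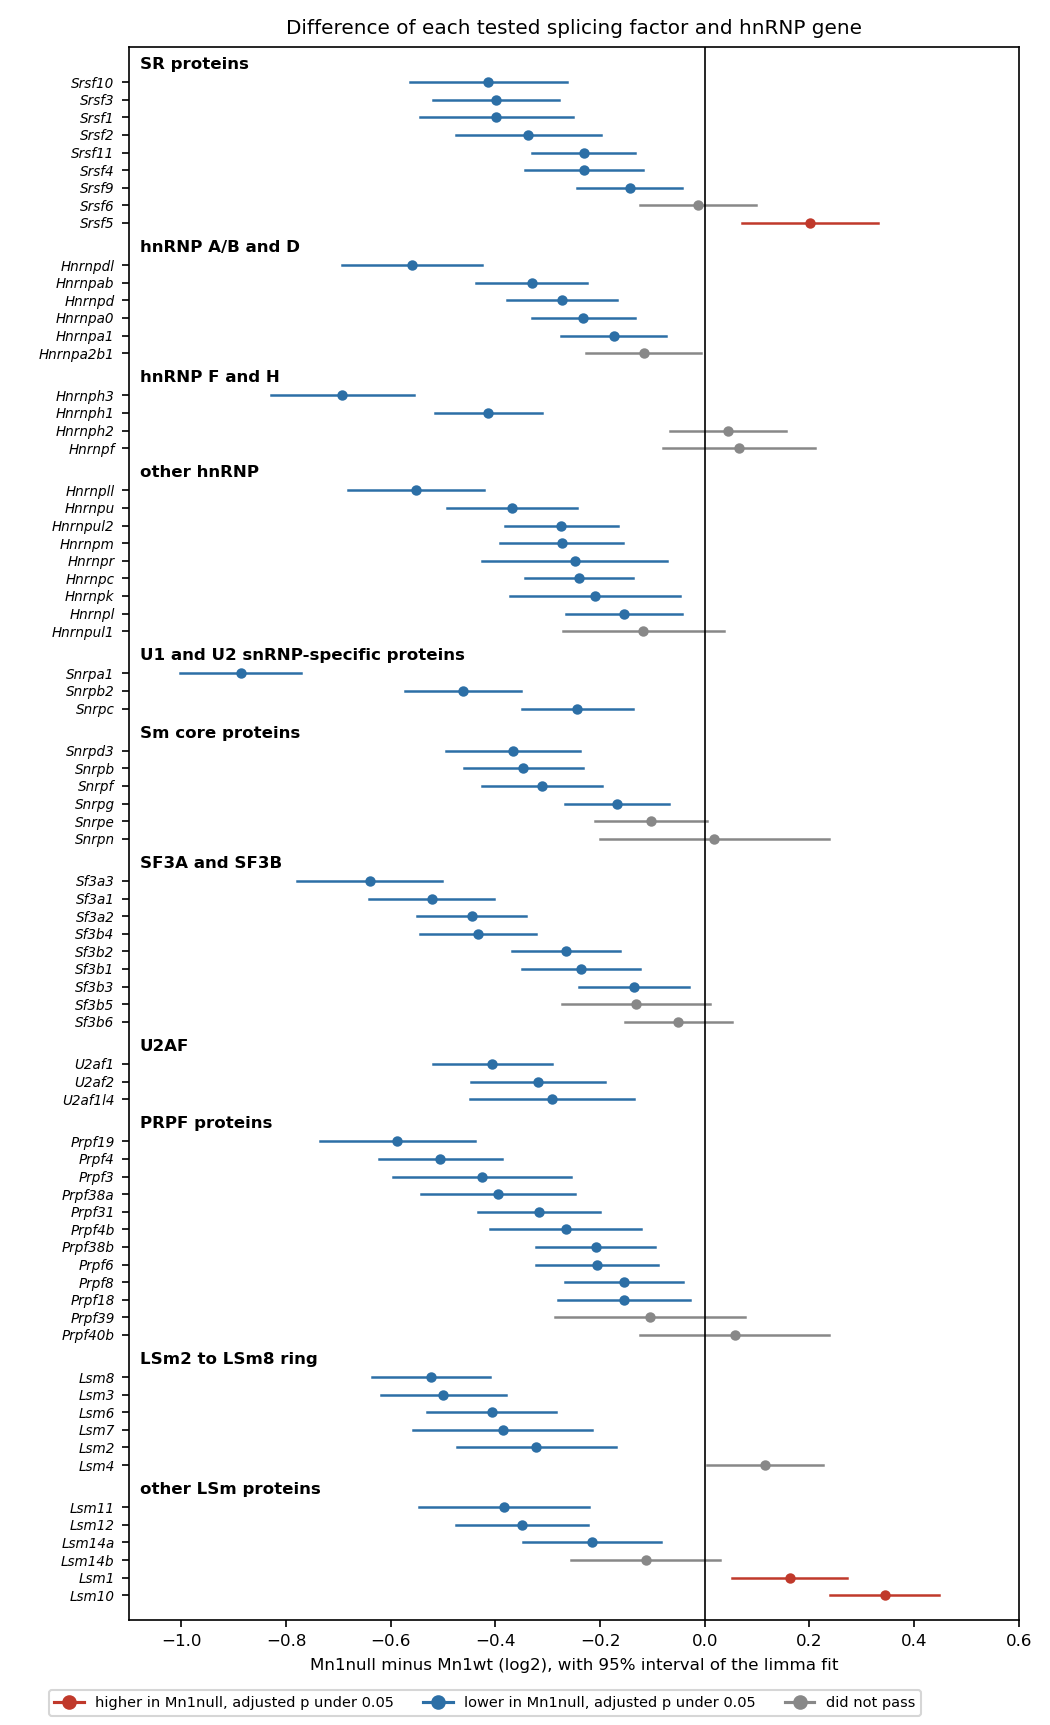
Difference of each of the 73 tested genes (Mn1null minus Mn1wt, log2, horizontal axis), by role group, with the 95% interval of the limma fit as a line; blue marks genes that fell, red genes that rose and grey genes that did not pass. Nearly all points lie left of 0, from -0.89 (Snrpa1) to 0.34 (Lsm10).

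Counted in either direction, the differences were small next to those of the whole array. Of the 73 genes, 4 (Snrpa1, Hnrnph3, Sf3a3 and Prpf19) differed at least 1.5-fold with an adjusted p under 0.05, against 15% of all genes, and 0 reached 2-fold on the brightest probe set, against 6.08% of all genes. The members gave bright signals with little spread, with a median SD of 0.052 in Mn1null and 0.035 in Mn1wt, against 0.072 and 0.075 over all genes. Among the 924 genes at or above the members' median signal of 11.39, 43.1% fell, and among the 37 members there 28 fell (75.7%). Among the 13756 genes below it 24.4% fell, and among the 36 members there 29 fell (80.6%). The median difference at or above that signal was -0.090 for all genes and -0.25 for members. Below it the medians were -0.00087 and -0.28. At or above it, 93 of the 924 genes passed at 1.5-fold or more and 19 at 2-fold or more. Of the 37 members there, 2 and 0 did.

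**Figure D2:**
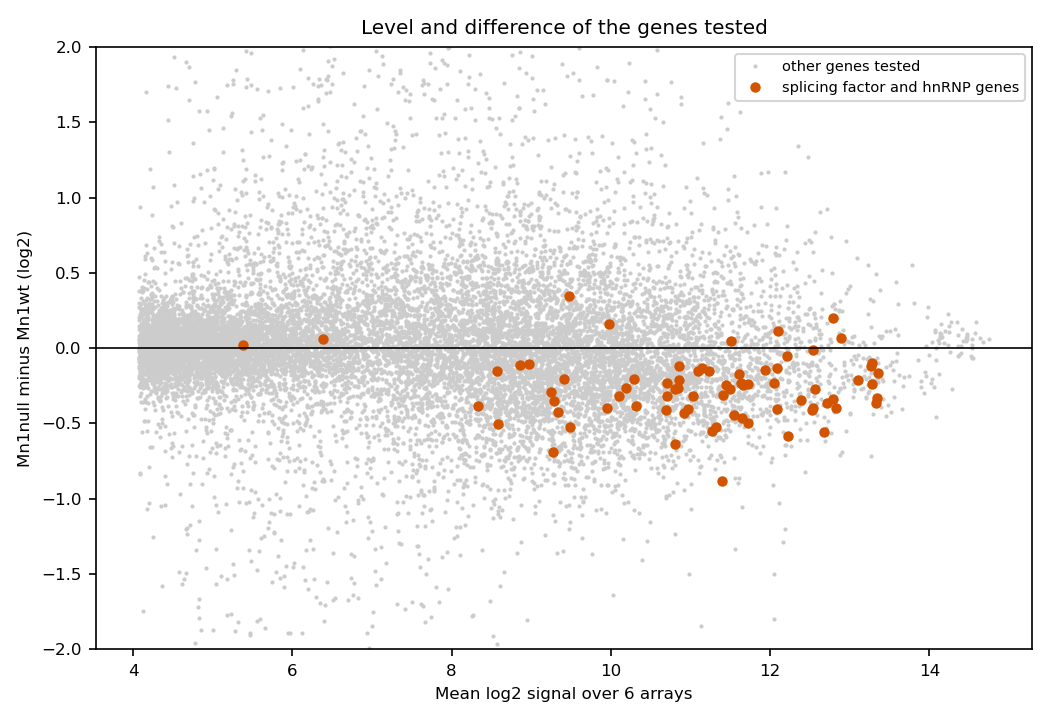
Mean log2 signal over 6 arrays (horizontal axis) against the difference Mn1null minus Mn1wt (log2, vertical axis) for the splicing factor and hnRNP genes (orange) and the other genes tested (grey). The vertical axis ends at 2 in both directions, which leaves 240 genes outside it, none of them a splicing factor or hnRNP gene; the orange points gather below 0 at high signal.

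Promoter sequences were available for 64 of the 74 genes, from RefSeq on the build GRCm38.p6, and the 250 bases before the first listed start of each gene are described here because the members moved together. A GC-rich letter string of the GC box, GGGCGG, stood on either strand in 40 of 64 members (62.5%), 54.5% of 11790 tested genes and 32.9% of all 27025 genes of that table. The ETS core string CCGGAAG stood in 16 members (25%), against 12.2% of tested genes and 7.05% of all genes. CCAAT was found in 30 members (46.9%), against 35.9% of tested genes and 34.5% of all. The E-box CACGTG was found in 3 members (4.69%), against 8.01% of tested genes and 6.05% of all, and TATAAA in 4 members (6.25%), against 7.43% and 13.0%. None of these strings holds another, though a GC box and an ETS string can share bases. The members' windows had a median of 60.4% G and C, against 58.8% for tested genes. They held a median of 20 CG letter pairs, against 14 for tested genes. Among the 50 members that fell and had a sequence, GGGCGG stood in 31 (62.0%), CCAAT in 23 (46.0%) and CCGGAAG in 13 (26.0%). These shares were near those of all 64 members. CACGTG stood in 1 of the 50 (2.0%) and TATAAA in 4 (8.0%). A match is a description of letters and shows no binding, and a link of any string to the falls was not tested.

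The windows of 3 of the 4 genes with the largest falls, and of the gene with the largest rise, are printed 5′ to 3′ in the direction of transcription, with the strings above in capitals. Snrpa1 (window chr7:66060086-66060335, plus strand) has 1 GC box string on the reverse strand, Sf3a3 (chr4:124714611-124714860, plus strand) 1 ETS string on the reverse strand, Prpf19 (chr19:10894981-10895230, plus strand, the first of 2 listed starts) an ETS string and a CCAAT string, and Lsm10 (chr4:126096403-126096652, plus strand), whose RNA rose, 1 CCAAT string on the reverse strand. Each window ends at the base before the annotated start of its gene.
Snrpa1: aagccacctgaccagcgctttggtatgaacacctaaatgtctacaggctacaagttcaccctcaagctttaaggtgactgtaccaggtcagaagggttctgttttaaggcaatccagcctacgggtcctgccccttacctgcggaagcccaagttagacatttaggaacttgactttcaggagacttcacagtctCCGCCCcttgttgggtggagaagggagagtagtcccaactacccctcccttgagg
Sf3a3: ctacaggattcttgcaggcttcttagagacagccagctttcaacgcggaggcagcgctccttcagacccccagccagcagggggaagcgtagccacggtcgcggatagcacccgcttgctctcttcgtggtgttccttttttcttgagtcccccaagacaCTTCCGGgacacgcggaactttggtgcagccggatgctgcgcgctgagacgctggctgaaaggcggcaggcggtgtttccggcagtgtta
Prpf19: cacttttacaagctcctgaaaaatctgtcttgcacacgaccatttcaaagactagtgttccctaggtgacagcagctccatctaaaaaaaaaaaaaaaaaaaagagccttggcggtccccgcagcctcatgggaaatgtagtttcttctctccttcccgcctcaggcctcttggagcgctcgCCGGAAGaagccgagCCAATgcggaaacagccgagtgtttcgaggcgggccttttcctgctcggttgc
Lsm10: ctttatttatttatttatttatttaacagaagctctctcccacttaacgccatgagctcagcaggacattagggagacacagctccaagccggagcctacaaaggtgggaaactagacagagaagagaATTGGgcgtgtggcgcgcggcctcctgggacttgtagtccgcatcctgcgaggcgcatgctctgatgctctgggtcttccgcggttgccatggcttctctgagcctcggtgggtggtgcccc

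Genes for proteins particular to the U1 and U2 snRNPs had the lowest median of the 11 role groups (-0.46), and all 3 tested genes fell. Snrpa was read by a probe set shared with predicted genes and is outside this count. That probe set differed by -0.12, with overlap, and did not pass (limma adjusted p = 0.151). Snrpa1, which encodes the A′ protein of the U2 snRNP, gave 10.94, 10.90 and 11.01 in Mn1null cells, against 11.81, 11.83 and 11.87 in Mn1wt cells. The groups lay far apart, and the difference of -0.89 ± 0.049 (SE), or 1.85-fold lower, had a limma adjusted p of 1.20e-05. Its other 2 probe sets gave -1.09 and -1.01, so all 3 probe sets fell. Snrpb2, which encodes the B″ protein that binds U2 snRNA together with the A′ protein, averaged 11.42 ± 0.049 in Mn1null cells and 11.88 ± 0.022 in Mn1wt cells (SD, n = 3 each), a difference of -0.46 ± 0.047 (SE), and its dimmest probe set, the only 1 designed for 1 transcript, gave 0.031. Snrpc, which encodes the C protein of the U1 snRNP, fell by the least of the 3, with -0.24 ± 0.045, and missed the threshold when its probe sets were averaged (-0.17, limma adjusted p = 0.1235).

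SF3A and SF3B proteins bind the U2 snRNP at the branch point. Of their 9 genes, 7 fell (median -0.26) and 2 did not pass. All 3 SF3A genes fell. Sf3a3 gave 10.47, 10.39 and 10.57 in Mn1null cells, against 11.10, 11.11 and 11.15 in Mn1wt cells, without overlap, a difference of -0.64 ± 0.059 (limma adjusted p = 1.22e-04). Sf3a1 averaged 9.23 ± 0.062 in Mn1null cells and 9.75 ± 0.027 in Mn1wt cells (SD, n = 3 each), a difference of -0.52 ± 0.050 (SE). Its second tested probe set gave 8.43, 8.31 and 8.58 in Mn1null cells, against 8.25, 8.22 and 8.40 in Mn1wt cells, with overlap and in the other direction, and the average of all its probe sets missed the threshold (difference -0.11, limma adjusted p = 0.0726). Sf3a2 differed by -0.45 ± 0.044, and its other tested probe set gave -0.12 and did not pass.

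Among SF3B genes, Sf3b4 fell by the most on the brightest probe set, at -0.43 ± 0.047. Its other tested probe set gave -0.056 and did not pass. Sf3b1, whose product contacts the branch point, gave 11.57, 11.59 and 11.67 in Mn1null cells, against 11.85, 11.84 and 11.85 in Mn1wt cells. Its arrays did not overlap, and the difference was -0.24 ± 0.047 (limma adjusted p = 0.00509). Sf3b2 fell by a similar amount (-0.26). The 3 other tested probe sets of Sf3b1 fell by more than its brightest, with -0.38, -0.49 and -0.69. Sf3b3 fell by 0.14, a call that was lost in 13 of 16 alternatives, among them without Mn1null replicate 1, 2 or 3 or Mn1wt replicate 1, 2 or 3 (limma adjusted p = 0.051 to 0.114). Sf3b5 (-0.13) and Sf3b6 (-0.050) did not pass.

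All 3 U2AF genes fell, with a median of -0.32. U2af1, whose product reads the AG at the end of the intron, gave 11.93, 11.84 and 11.88 in Mn1null cells, against 12.28, 12.32 and 12.25 in Mn1wt cells. No Mn1null value reached a Mn1wt value, and the difference was -0.41 ± 0.048 (SE, 1.33-fold lower, limma adjusted p = 4.07e-04). U2af2, which encodes the partner that binds the polypyrimidine tract, differed by -0.32 ± 0.054, and the paralog U2af1l4 by -0.29 ± 0.066. The probe sets that list U2af1l4 beside Igflr1 gave -0.061 and -0.10, with overlap, and did not pass.

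The 6 measured Sm core genes had a median of -0.24; 4 fell and 2 did not pass. Snrpb, which encodes the B and B′ ring proteins, gave 12.18, 12.21 and 12.27 in Mn1null cells, against 12.57, 12.53 and 12.59 in Mn1wt cells. The groups did not overlap, with a difference of -0.35 ± 0.048 (SE, limma adjusted p = 8.40e-04). Snrpd3 differed by -0.37 ± 0.054 and Snrpf by -0.31 ± 0.049. The 2 other tested probe sets of Snrpd3 gave -0.23 and 0.020 and did not pass. Snrpg, among the brightest signals of the whole group, averaged 13.27 ± 0.022 in Mn1null cells and 13.44 ± 0.014 in Mn1wt cells (SD, n = 3 each); its call (-0.17) was lost in 4 of 16 alternatives, and the smallest difference among them was -0.043 (limma adjusted p = 0.64), with probe sets for 1 transcript only. Snrpe (-0.10) did not pass, although its groups did not overlap. Snrpn, an imprinted paralog of Snrpb, had a signal of 5.39 in Mn1null and 5.37 in Mn1wt on its own probe set.

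The PRPF genes encode proteins of the U4, U6 and U5 particle and of the complexes that activate it, and 10 of 12 fell (median -0.24), while 2 did not pass. Prpf19, the ubiquitin ligase that gives the activating complex its name, gave 11.94, 12.03 and 11.83 in Mn1null cells, against 12.53, 12.56 and 12.48 in Mn1wt cells. The groups were clear of each other, with a difference of -0.59 ± 0.062 (SE, limma adjusted p = 2.37e-04). Prpf4, which encodes a protein of the U4 and U6 particle, gave 8.29, 8.38 and 8.34 in Mn1null cells, against 8.86, 8.78 and 8.88 in Mn1wt cells, a difference of -0.51 ± 0.050 without overlap. Its other tested probe set gave -0.10, with overlap, and did not pass. The partners of Prpf4 in that particle, Prpf3 (-0.43) and Prpf31 (-0.32), fell too, and so did Prpf38a (-0.40), a factor of spliceosome activation. With the mean of their probe sets the calls of Prpf31 (-0.13, limma adjusted p = 0.1004) and Prpf38a (-0.19, limma adjusted p = 0.0596) were lost. The kinase gene Prpf4b fell by 0.27, Prpf38b by 0.21 and Prpf6, a bridging protein of the joined particle, by 0.21. Prpf8, which encodes the scaffold of the catalytic core, and Prpf18, which acts in the joining of exons, both differed by -0.15, and these calls were lost in 9 and 12 of 16 alternatives. The call of Prpf8 was lost without Mn1null replicate 1 or 2 or Mn1wt replicate 1, 2 or 3 (limma adjusted p = 0.0512 to 0.101) and that of Prpf18 without Mn1null replicate 1, 2 or 3 or Mn1wt replicate 1, 2 or 3 (limma adjusted p = 0.062 to 0.124). Prpf39 (-0.10) and Prpf40b (0.057), relatives of yeast U1 proteins, did not pass on their brightest probe sets.

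**Figure D3:**
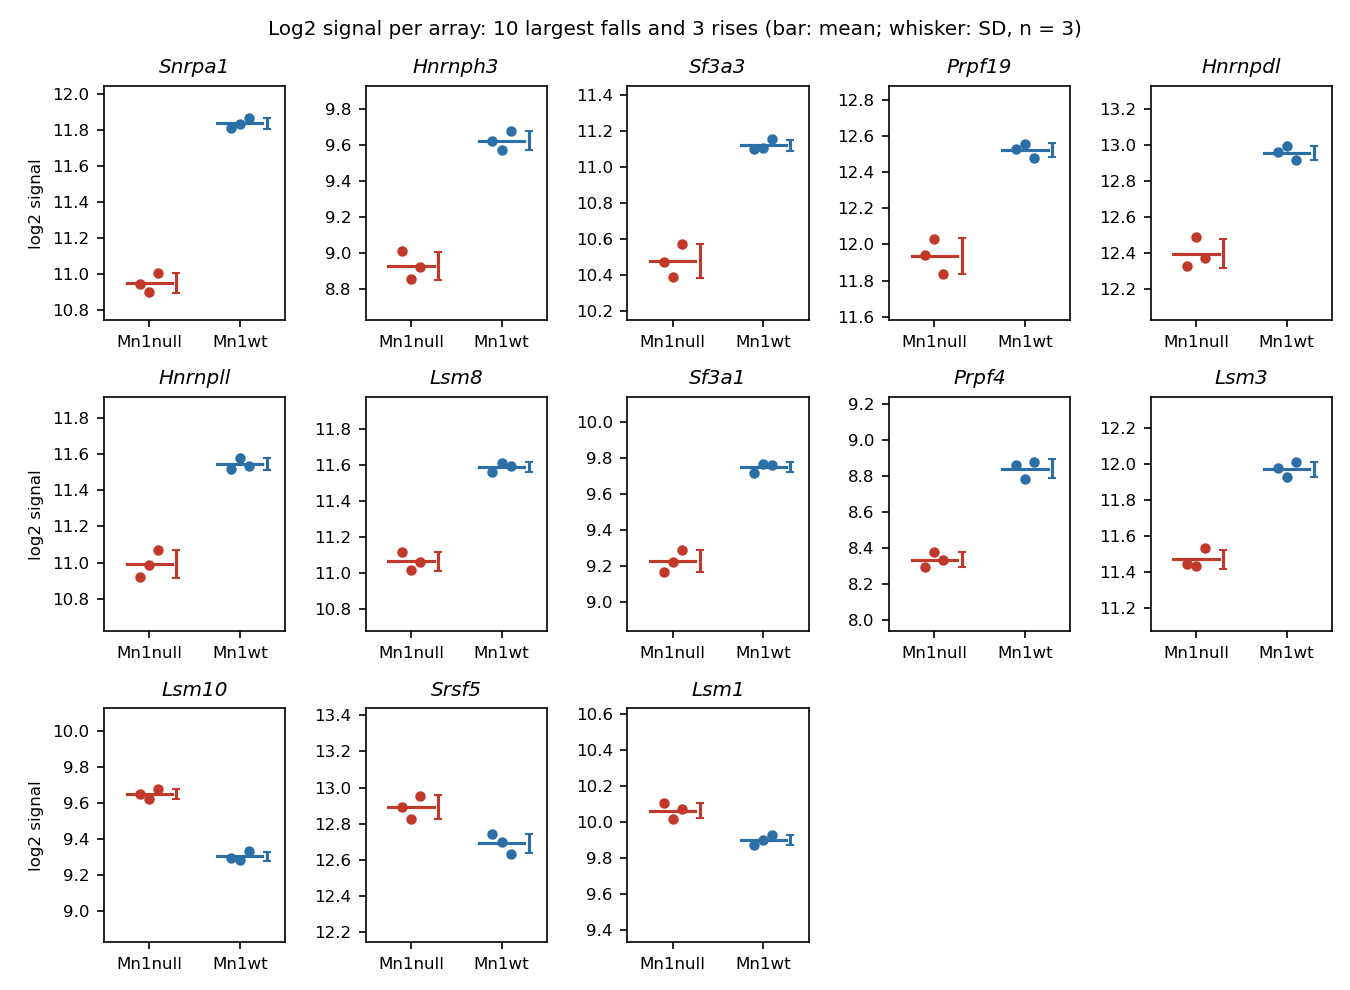
Log2 signal (vertical axis, 1.3 log2 units in every panel) on each of the 6 arrays for the 10 largest falls and the 3 rises, with Mn1null in red on the left and Mn1wt in blue on the right; bars are means and whiskers are SD (n = 3). In every panel the 3 values of one group lie on one side of the other group, as the rule that chose these genes required.

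Of 6 measured genes for the LSm ring of U6, 5 fell, with a median of -0.40. Lsm8, the subunit that keeps this ring in the nucleus, gave 11.12, 11.01 and 11.06 in Mn1null cells, against 11.56, 11.61 and 11.59 in Mn1wt cells. These did not overlap, with a difference of -0.52 ± 0.048 (SE, limma adjusted p = 1.18e-04). The other tested probe set of Lsm8 gave -0.24 and did not pass. Lsm3 gave 11.45, 11.44 and 11.53 in Mn1null cells, against 11.98, 11.92 and 12.01 in Mn1wt cells, again without overlap (-0.50 ± 0.050). Lsm6 (-0.41), Lsm7 (-0.39) and Lsm2 (-0.32) fell as well. Lsm4, another subunit, was at 12.10, 12.15 and 12.21 in Mn1null cells and at 12.05, 12.04 and 12.03 in Mn1wt cells; all Mn1null values were above the Mn1wt values, and the difference of 0.11 did not pass (limma adjusted p = 0.0835).

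LSm genes with work outside the spliceosome went both ways, with 2 that rose, 3 that fell and 1 that did not pass. Lsm10, which encodes an Sm-like protein of the U7 snRNP that cuts histone pre-mRNA, gave 9.65, 9.62 and 9.68 in Mn1null cells, against 9.29, 9.29 and 9.33 in Mn1wt cells. It was higher on every Mn1null array, by 0.34 ± 0.044 (SE, 1.27-fold, limma adjusted p = 5.74e-04). Its partner in the U7 ring, Lsm11, averaged 8.14 ± 0.041 in Mn1null cells and 8.52 ± 0.12 in Mn1wt cells (SD, n = 3 each), and it fell by 0.38, although the mean of both its probe sets did not pass (-0.15, limma adjusted p = 0.234). Lsm1, which takes the place of Lsm8 in the cytoplasmic ring that promotes mRNA decay, gave 10.10, 10.02 and 10.07 in Mn1null cells, against 9.87, 9.90 and 9.93 in Mn1wt cells. Its rise of 0.16 ± 0.046 (limma adjusted p = 0.024) was lost in 8 of 16 alternatives, 4 of them without Mn1null replicate 1 or 3 or Mn1wt replicate 1 or 2 (limma adjusted p = 0.0609 to 0.0856). Lsm12 fell by 0.35 and Lsm14a, a protein of cytoplasmic mRNA granules, by 0.21, a call lost in 4 alternatives, 1 of them without Mn1null replicate 1 (limma adjusted p = 0.0576) and 1 with probe sets for 1 transcript only (-0.018, limma adjusted p = 0.807), while Lsm14b (-0.11) did not pass.

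SR proteins bind exons through RNA recognition motifs and recruit the splicing machinery with arginine-serine tails. Of their 9 tested genes, 7 fell, 1 rose and 1 did not pass (median -0.23). Srsf3, also an adaptor of mRNA export, gave 12.37, 12.38 and 12.26 in Mn1null cells, against 12.71, 12.74 and 12.76 in Mn1wt cells. The groups did not overlap, with a difference of -0.40 ± 0.051 (SE, 1.32-fold lower, limma adjusted p = 5.72e-04). Srsf1, a splicing factor with oncogenic activity, gave 12.73, 12.57 and 12.60 in Mn1null cells, against 13.08, 12.96 and 13.06 in Mn1wt cells, a difference of -0.40 ± 0.062 without overlap. Srsf2 averaged 12.61 ± 0.058 in Mn1null cells and 12.95 ± 0.076 in Mn1wt cells (SD, n = 3 each), a difference of -0.34 ± 0.058, and its dimmest probe set gave 0.012. Srsf10, a repressor when dephosphorylated, had the largest fall of the family (-0.41 ± 0.063). Srsf6 (-0.013) did not pass on its brightest probe set. Srsf11 and Srsf4 both differed by -0.23, and Srsf9 by -0.14, a call lost in 10 of 16 alternatives, among them without Mn1null replicate 1, 2 or 3 or Mn1wt replicate 1, 2 or 3 (limma adjusted p = 0.0549 to 0.0744).

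Srsf5 went against its family. It gave 12.89, 12.83 and 12.96 in Mn1null cells, against 12.74, 12.70 and 12.63 in Mn1wt cells, so every Mn1null value was above every Mn1wt value. The rise of 0.20 ± 0.055 (SE, 1.15-fold, limma adjusted p = 0.0202) rests on 1 probe set, and it was lost without Mn1null replicate 1 or 3 or Mn1wt replicate 3 (limma adjusted p = 0.0581 to 0.0626). Srsf12 was under the filter, with means of 2.73 in Mn1null and 2.85 in Mn1wt, and was not tested.

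The hnRNP genes of the A/B and D classes fell for 5 of 6, with a median of -0.25. Hnrnpdl, a relative of the AU-rich element binding protein hnRNP D, gave 12.33, 12.49 and 12.37 in Mn1null cells, against 12.96, 12.99 and 12.92 in Mn1wt cells. These groups were well apart, with a difference of -0.56 ± 0.056 (SE, limma adjusted p = 1.91e-04). Hnrnpab, another of the brightest signals, gave 13.18, 13.13 and 13.22 in Mn1null cells, against 13.50, 13.50 and 13.52 in Mn1wt cells and fell by 0.33. Hnrnpd (-0.27), Hnrnpa0 (-0.23) and Hnrnpa1 (-0.17), whose product binds exonic silencers, fell too, and Hnrnpa2b1 (-0.12) did not pass, though its groups did not overlap.

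Among the hnRNP genes of the F and H class, which bind runs of G, 2 of 4 fell. Hnrnph3 gave 9.01, 8.86 and 8.92 in Mn1null cells, against 9.62, 9.57 and 9.68 in Mn1wt cells. That is a difference of -0.69 ± 0.058 (SE, 1.62-fold lower, limma adjusted p = 7.81e-05), and the groups did not overlap. Hnrnph1 differed by -0.41 ± 0.043, and its other tested probe set gave -0.24, with overlap, and did not pass. Hnrnpf (0.065, 95% interval -0.081 to 0.21) and Hnrnph2 (0.044, -0.066 to 0.16) did not pass, and both had overlapping groups.

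Of the 9 other hnRNP genes 8 fell, with a median of -0.25. Hnrnpll, known in lymphocytes for directing alternative splicing of the phosphatase CD45, gave 10.92, 10.98 and 11.07 in Mn1null cells, against 11.52, 11.58 and 11.53 in Mn1wt cells. It was lower on every Mn1null array, with a difference of -0.55 ± 0.055 (SE, limma adjusted p = 1.75e-04). Hnrnpu, a nuclear scaffold protein with a very bright signal, averaged 13.15 ± 0.053 in Mn1null cells and 13.51 ± 0.053 in Mn1wt cells (SD, n = 3 each), a difference of -0.37 ± 0.052. Hnrnpc, which binds uridine tracts, fell by 0.24, Hnrnpul2 and Hnrnpm by 0.27 each, Hnrnpr by 0.25, the poly-C binding Hnrnpk by 0.21 and Hnrnpl by 0.15. The calls of Hnrnpk, Hnrnpl and Hnrnpr were lost in 10, 8 and 8 of 16 alternatives. Hnrnpk lost it without Mn1null replicate 1 or 3 or Mn1wt replicate 1, 2 or 3 (limma adjusted p = 0.062 to 0.118). Hnrnpl lost it without Mn1null replicate 1 or Mn1wt replicate 1, 2 or 3 (limma adjusted p = 0.0657 to 0.102), and Hnrnpr without Mn1null replicate 1 or 3 or Mn1wt replicate 1 or 2 (limma adjusted p = 0.0562 to 0.0911). The 3 other tested probe sets of Hnrnpk gave 0.0055, -0.096 and 0.071, and none passed. Hnrnpul1 (-0.12) did not pass.

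Across all 16 alternatives, 39 of the 57 genes that fell kept their call wherever they had a value, and of the 3 that rose Lsm10 did. Of the members 25 have 1 probe set, Lsm10 among them, so another choice of probe set could not change their values. The matching share of calls kept over all genes was not counted. With 1 array left out the number of members that fell lay between 49 and 53, against 57 with all arrays. Over all genes tested, 3311 to 3471 fell with 1 array left out, against 3757 with all arrays. Calls were thus fewer across the array as well.

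Different probe sets of a gene can read different transcript ends, so all 197 probe sets of the 74 genes were examined. In a fit over the 26395 single-gene probe sets above the filter, 181 member probe sets were tested, of which 116 fell (64.1%), 3 rose and 62 did not pass, while over all of these probe sets 24.6% fell and 46.1% passed in either direction. Of the 108 that were not the brightest of their gene, 61 fell (56.5%) and 47 did not pass; their median was -0.28. No gene had probe sets that passed in opposite directions. Of 40 genes that fell and had another tested probe set, 26 had at least 1 other that fell. The matching count over all genes of the array that fell was not made. A further 19 probe sets list a symbol of these families beside other genes and entered none of these counts. In a fit over all 31526 non-control probe sets above the filter, 11 of them fell, 0 rose (0 also at an unadjusted p under 0.05), 6 did not pass and 2 were under the filter, while over that whole fit 22.2% fell and 19.3% rose.

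Within a gene, 29 of 108 pairs of the brightest and another probe set differed in their response (limma on the per-array difference of the pair), next to 26.1% of 11715 such pairs over all genes, a share near that of the array as a whole. Without Mn1null replicates 1, 2 or 3 the count was 20, 18 or 19, and without Mn1wt replicates 1, 2 or 3 it was 16, 21 or 17. The matching counts over all pairs of the array were not taken. Among the pairs that differed were those of Srsf6. Its brightest probe set gave 12.57, 12.51 and 12.52 in Mn1null cells, against 12.58, 12.50 and 12.56 in Mn1wt cells. These overlapped, and the difference of -0.013 did not pass. Its second gave 11.58, 11.58 and 11.58 in Mn1null cells, against 12.04, 12.01 and 12.07 in Mn1wt cells, without overlap and with a difference of -0.46 ± 0.047 (SE, limma adjusted p = 2.20e-04). The remaining 2 fell by 0.47 and 0.39, and the brightest exceeded the other 3 in its difference by 0.38 to 0.46, with pair adjusted p of 0.00307, 0.00544 and 0.00739 in limma.

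Other genes showed the same kind of gap. The second probe set of Prpf39 gave 7.91, 7.62 and 7.76 in Mn1null cells, against 8.52, 8.52 and 8.66 in Mn1wt cells, a fall of 0.80 where the brightest differed by -0.10 (limma pair adjusted p = 0.00124). A dim probe set of Hnrnpd gave 5.86, 5.97 and 6.07 in Mn1null cells, against 7.33, 6.99 and 7.13 in Mn1wt cells, which at -1.19 was the lowest difference of any tested member probe set, against -0.27 for its brightest (limma pair adjusted p = 0.00145). For Sf3b2 the second probe set fell by 0.95 and the brightest by 0.26. Of the 2 other tested probe sets of Snrpb2, 1 fell by 0.42 and the dimmest gave 0.031 and did not pass. Neither of the 2 other tested probe sets of Sf3a1 passed, with 0.15 and 0.048. The stretch of transcript that each probe set reads is not known here.

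**Figure D4:**
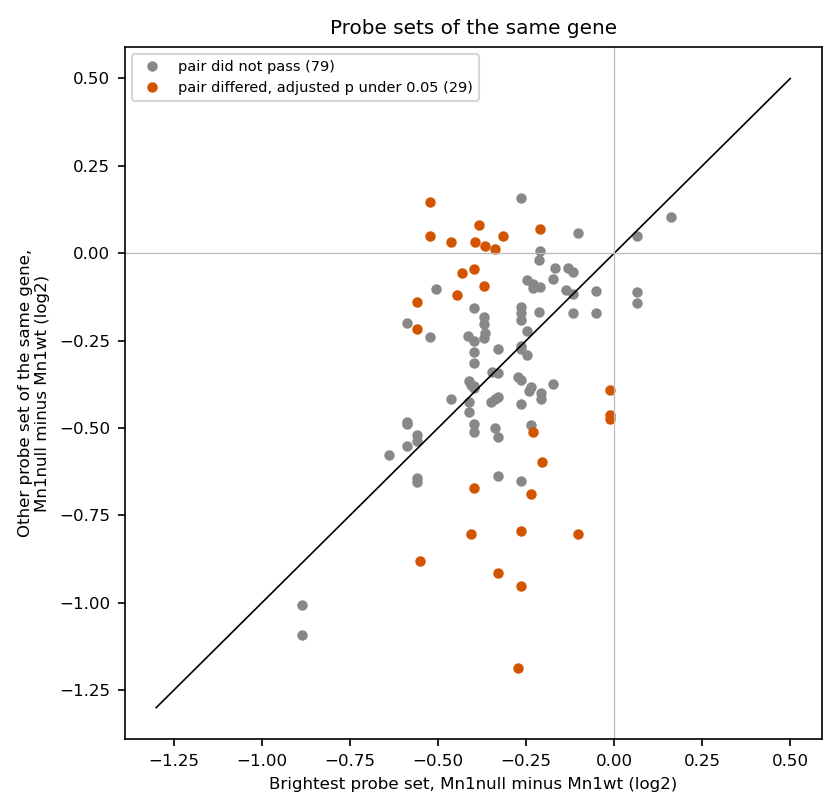
Difference (Mn1null minus Mn1wt, log2) of the brightest probe set of a gene (horizontal axis) against that of each other tested probe set of the same gene (vertical axis), for 108 pairs of 47 genes; the line marks equal differences. Orange marks the 29 pairs that differed, and most points of either colour lie left of and below 0.

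Splicing genes with other names, taken from lists of textbook pathways and complexes, also fell more often than they rose. Of 126 tested genes in 6 lists, 74 fell (58.7%), 4 rose and 48 did not pass; the median was -0.21. Over all genes tested 25.6% fell. Of 51 genes for other spliceosome proteins, 35 fell, 1 rose and 15 did not pass (median -0.26). Plrg1, a partner of Prpf19 in the activating complex, gave 9.74, 9.76 and 9.79 in Mn1null cells, against 10.33, 10.38 and 10.43 in Mn1wt cells, and Cwc22, which recruits the exon junction complex, fell by 0.50. Slu7, which acts in the choice of the 3′ splice site, was higher at 0.19 ± 0.053 (limma adjusted p = 0.0213), a call lost in 7 of its alternatives, 3 of them without Mn1null replicate 1 or 3 or Mn1wt replicate 1 (limma adjusted p = 0.0604 to 0.0714). Of 7 genes for proteins of the minor spliceosome 4 fell and 3 did not pass, with Pdcd7 at -0.40 and Zcrb1 at -0.26.

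Of 14 genes of the SMN complex and Sm ring assembly, 9 fell and 5 did not pass (median -0.29), among them the helicase gene Ddx20 (-0.55 ± 0.052, SE) and Strap (-0.44 ± 0.042). Of 3 measured exon junction genes 1 fell, Rbm8a (-0.45). Of 21 genes for SR-related proteins and SR kinases 8 fell and 13 did not pass (median -0.12). Luc7l was at -0.60 ± 0.055 and Luc7l3 at -0.52 ± 0.041, both relatives of a yeast U1 protein.

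Of 30 genes for other splicing regulators 17 fell, 3 rose and 10 did not pass (median -0.16). Pspc1, a paraspeckle protein, gave 9.54, 9.46 and 9.53 in Mn1null cells, against 10.45, 10.40 and 10.40 in Mn1wt cells. This was the largest fall of all the splicing genes examined on their brightest probe set, at -0.91 ± 0.046 (SE, limma adjusted p = 8.43e-06). Syncrip, an hnRNP-like protein, fell by 0.59. Rbm5, a splicing regulator of apoptosis genes, gave 11.20, 11.20 and 11.24 in Mn1null cells, against 10.84, 10.86 and 10.92 in Mn1wt cells and was higher without overlap (0.34 ± 0.046). Ptbp3, a polypyrimidine tract binding protein of haematopoietic cells, was higher as well (0.31 ± 0.044), and the third was Mbnl2 (0.21), a regulator of tissue-specific exons.

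**Figure D5:**
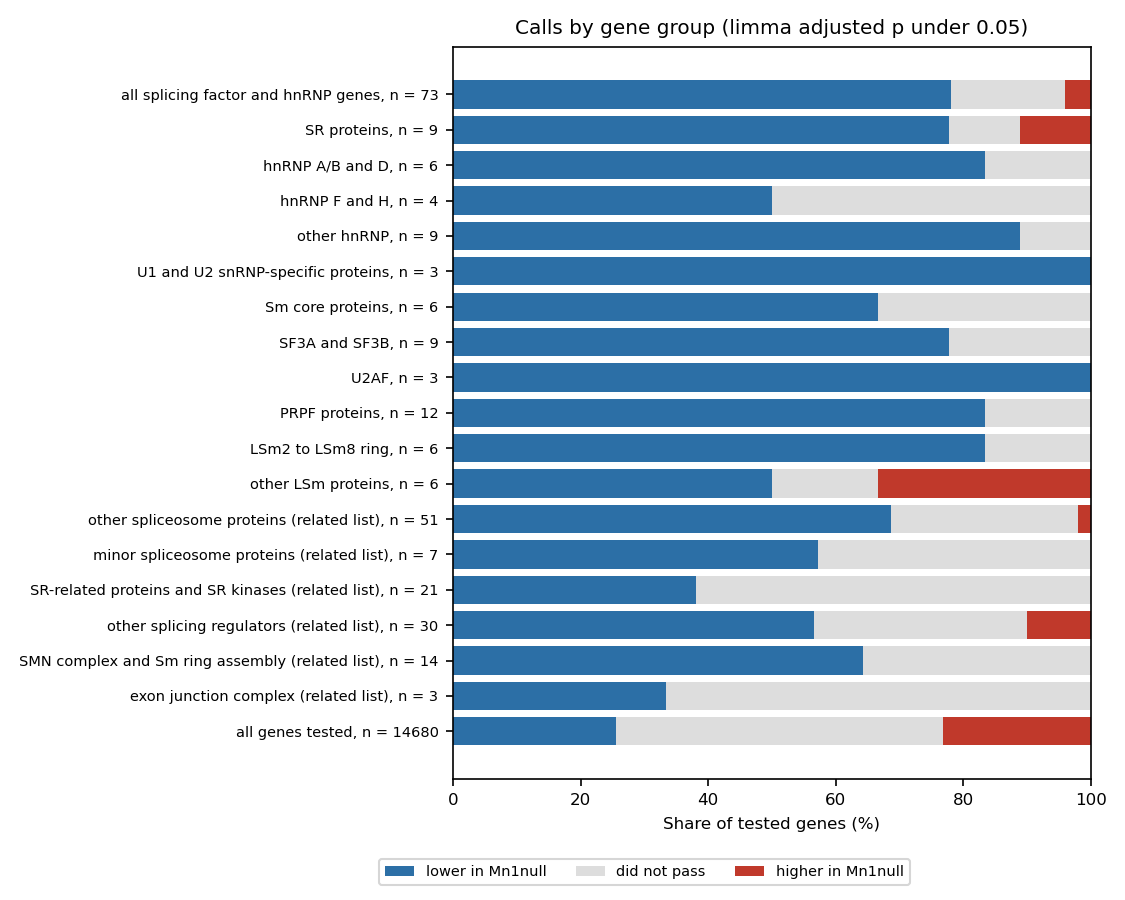
Share of tested genes (horizontal axis, percent) that fell (blue), rose (red) or did not pass (grey) in Mn1null against Mn1wt, for all 73 splicing factor and hnRNP genes, their 11 role groups, the 6 related lists and, in the last bar, all 14680 genes. Blue takes 78.1% of the top bar and 25.6% of the last.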

How the data were processed

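Each of 6 RNA samples, 3 microgram of total RNA per the labels' protocols, was read on its own single-channel Affymetrix mouse array. The authors deposited log2 signals, and the submitters' processing notes name RMA, which quantile-normalizes arrays and compresses low signals; no version or filter is stated. Of 45037 non-control probe sets 34945 name 1 gene in the platform annotation, 932 name several and 9160 are not listed. Each gene was represented by the single-gene probe set with the highest mean over 6 arrays, and 3513 genes were left out for a mean below log2 4.07, the 30th percentile of probe sets. All 74 members matched a RefSeq gene (GRCm38.p6) by Entrez identifier.

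The test was limma's moderated fit (lmFit, eBayes; version 3.58.1, R 4.3.3), 2-sided, with Benjamini-Hochberg adjustment over all genes, probe sets or probe set pairs tested; every adjusted p comes from limma. The steps were tested on simulated data. The members, role groups, lists and the rule for named genes were chosen with earlier results of these data known; the motif strings were chosen after the fit. The rule names the 10 largest rises and falls without overlap, the smallest p per role group and direction, the 3 brightest members, members under the filter and up to 2 genes per direction of each related list; other members are named within their role group. The number of arrays limits the precision.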

Additional observations from a re-analysis of the deposited data

How the results depend on the processing

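The 16 alternatives changed the choice of probe set, the filter, the scaling (quantile or median centring), the variance model (intensity trend, array weights), the blocking by replicate number, the threshold (0.01 for 0.05) or the arrays used, with 1 left out at a time. The number of splicing factor and hnRNP genes that fell lay between 44 (probe sets designed for 1 transcript only, 66 genes with a value) and 61 (intensity trend), against 57 as reported. The number that rose was 3, and lay between 1 (threshold of 0.01) and 4 (quantile normalization or intensity trend); with 1 array left out it lay between 1 (Mn1null replicate 1 or 3) and 3. The median difference of -0.27 was -0.25 with the mean of a gene's probe sets, -0.25 with probe sets designed for 1 transcript only, -0.23 with quantile normalization, -0.28 with median centring, and -0.29 to -0.26 with 1 array left out. Pairs of probe sets that differed numbered 29, and 16 to 21 with 1 array left out, where fewer arrays enter the fit. Probe sets designed for 1 transcript only turned the sign of Snrpb2 (0.031, adjusted p = 0.791) and Srsf2 (0.012, adjusted p = 0.867), since that rule reads another, dimmer probe set of each. Same-numbered arrays did not deviate together (correlations of -0.039, 0.11 and 0.080), and 1 of 3 arrays per group correlated best with its own number, so the numbers were not treated as pairs; with the replicate block 52 members fell, 2 rose, the median stayed at -0.27 and 24 pairs differed. Signals near the filter level of 4.07, such as that of Mn1, compress differences.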

Other observations

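Among the 19 probe sets that list a symbol of these families beside other genes, the 4 shared by Hnrnpa3 and a predicted gene all fell, by 0.24 to 0.61. The 3 shared by Hnrnpa1 and 3 related sequences fell too, by 0.24 to 0.43, next to 0.17 on the brightest probe set of Hnrnpa1 alone. The probe set shared by Snrpd1 and a predicted gene gave 11.26, 11.29 and 11.28 in Mn1null cells, against 11.59, 11.68 and 11.65 in Mn1wt cells, a fall of 0.37 (limma adjusted p = 0.00111), and the one shared by Lsm5 and a predicted gene fell by 0.27. The one shared by Snrpd2 and a predicted gene differed by 0.0051 and did not pass.

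Snurf and Snrpn are made from 1 imprinted transcript, and 6 probe sets list both. The brightest averaged 9.86 ± 0.16 in Mn1null cells and 9.96 ± 0.046 in Mn1wt cells (SD, n = 3 each), with overlap and no call. A dimmer one gave 4.25, 3.85 and 4.10 in Mn1null cells, against 5.66, 5.80 and 5.78 in Mn1wt cells without overlap. It passed the filter only through the Mn1wt arrays, so the size of its difference is not given, though it is 1 of the 11 that fell. Another dim one fell by 0.50 and the remaining dim pair lay under the filter. The part of the transcript that each reads is not known here.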
